A study of Mus musculus with 10 samples.

Results

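Fatty acid oxidation and peroxisome genes were followed in the neocortex of young and old mice: 36 genes, chosen by name from the pathway, of 17876 genes that the array named. Of these, 18 act in mitochondrial oxidation, 16 in the peroxisome, and the remaining pair, Ppara and Ppard, are nuclear receptors that switch such genes on. Frozen neocortex of male B6C3F1 mice, the first-generation hybrid that the labels also call B6xC3 F1, was hybridized on Affymetrix Mouse 430 2.0 arrays, 1 array for each mouse. Mice aged 5 months and 30 months were compared, with 5 mice at each age. All of them were housed singly and ate the control diet AIN-93M, so the 2 groups differed by age in the labels. In the header of the deposited comparison table all 30-month columns carried a prefix that the 5-month columns lacked. What it stands for was not stated, and if it marks a processing batch, that batch and age cannot be told apart.

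Mitochondria break down fatty acids in a spiral. Carnitine carries the long acyl chains across the mitochondrial membranes, acyl-CoA dehydrogenases open each turn and pass electrons through the electron transfer flavoprotein to the respiratory chain, and a hydratase, a dehydrogenase and a thiolase then cut off acetyl-CoA. Peroxisomes shorten very long and branched chains and supply steps of ether lipid synthesis, and peroxins are the proteins that build the organelle and import its enzymes. In the brain, neurons use little fatty acid as fuel, and astrocytes hold most of the oxidation capacity.

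Each gene was represented by its brightest probe set, and 33 of the 36 members lay above the filter on low signal and were tested among 11963 genes. Values are the authors' deposited signals, a fluorescence intensity on a linear scale. A change is the mean log2 signal at 30 months minus that at 5 months, given with its standard error (SE, n = 5 mice for each age). A gene was called at a Benjamini-Hochberg adjusted p under 0.05 in limma, over all genes tested. Signals of different probe sets have no common scale, so levels are set against each other only within a gene.

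Of the 33 tested members 14 were higher, 3 were lower and 16 did not pass the test. Over all genes tested, 34% were called higher and 12.3% lower, so the counts of members lay close to the background. Ages did not overlap in 11 members, 9 upwards and 2 downwards, beside 24.5% and 5.75% of all genes tested. The calls fell unevenly along the pathway. In the mitochondrial spiral, 4 of 5 genes of the steps after the first dehydrogenation rose, while none of 4 member acyl-CoA dehydrogenases and none of 3 electron transfer genes did. Of those that rose, Hadh, Hadhb and Acaa2 were on kinds of probe set that were higher more often over the array, as given below. In peroxisomes the enzymes Acaa1a, Hsd17b4 and Scp2 and the transporter Abcd3 rose, and of 9 peroxins 3 rose, 1 fell and 5 did not pass. Acaa1a and the peroxin Pex16, 2 of 15 tested peroxisome members, were called higher under all 4 scalings of the arrays that were tried. Over all genes tested, 20% were. The 2 lower calls without overlap, Decr1 and Pex6, came from genes with another probe set that was called higher. In bulk tissue, fewer or more cells of a type and less or more RNA for each cell cannot be told apart.

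Marker signals were summed over all genes of a list, also those below the filter, so each sum is weighted towards its brightest probe sets. Such sums are set against each other only between ages within a list. The summed signals of 10 neuronal markers were 41370 to 44680 at 5 months and 42650 to 44750 at 30 months. Of these 10 markers 2 were called higher and none lower, Slc17a7 by 0.56 (SE 0.09) and Tubb3 by 0.31 (SE 0.07). Many markers of glia and vessels were called higher, beside 34% of all genes tested. Astrocyte markers were higher in 8 of 9 tested genes and lower in none, with sums of 10560 to 12050 at 5 months and 15350 to 16820 at 30 months, and Gfap, Aqp4 and Slc1a3 were higher by 2.04, 0.73 and 0.52. Microglia markers were higher in 6 of 9 and lower in 2, with sums of 7625 to 8409 and 10390 to 10710, and oligodendrocyte markers in 4 of 8, with sums of 27470 to 29450 and 27870 to 34120. Endothelial and pericyte markers were higher in 3 of 4, with sums of 2151 to 2537 and 3213 to 3530, and oligodendrocyte precursor markers in 2 of 4, with sums of 2939 to 3634 and 3659 to 4274. Both tested choroid plexus markers were lower, with sums of 8732 to 11390 and 3628 to 11830, and 1 of 2 meningeal markers was, with sums of 1045 to 1328 and 892.2 to 1351. The call of Ttr, which makes up most of the choroid plexus sum, ended on omission of any of 8 of the 10 arrays (limma adjusted p = 0.0544 to 0.1133, change -0.88 to -0.58), all but 30-month mice 3 and 6, which leaves 1 such marker. All 3 liver markers lay below the filter. The part of these cell types in the changes of the members was not tested.

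Promoter sequences were available for 31 of the 36 members in RefSeq (GRCm38.p6), as windows from 250 bases before to 50 bases after each transcription start. Decr1, Pex19, Hsd17b4, Abcd2 and Acaa2 had none. Promoters are shown for the steps on which the results turn: Hadhb of the later mitochondrial steps, which rose, Acaa1a of the peroxisomal enzymes, which rose most, and Acadvl of the acyl-CoA dehydrogenases, which fell. The windows are chr5:30155003-30155302 on the plus strand, chr9:119341044-119341343 on the plus strand and chr11:70015379-70015678 on the minus strand. Each is written 5' to 3' on the strand of its gene. Capitals mark the GC box GGGCGG on either strand in the first and second, with 4 and 3 matches, and the nuclear receptor core site AGGTCA in the Acadvl window, with 1 match.
Hadhb: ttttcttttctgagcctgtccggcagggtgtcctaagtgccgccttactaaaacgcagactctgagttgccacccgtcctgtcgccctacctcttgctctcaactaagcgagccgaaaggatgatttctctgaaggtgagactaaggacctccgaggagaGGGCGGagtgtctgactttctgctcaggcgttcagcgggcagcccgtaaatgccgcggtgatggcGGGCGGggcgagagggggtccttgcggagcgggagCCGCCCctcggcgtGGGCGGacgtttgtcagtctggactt
Acaa1a: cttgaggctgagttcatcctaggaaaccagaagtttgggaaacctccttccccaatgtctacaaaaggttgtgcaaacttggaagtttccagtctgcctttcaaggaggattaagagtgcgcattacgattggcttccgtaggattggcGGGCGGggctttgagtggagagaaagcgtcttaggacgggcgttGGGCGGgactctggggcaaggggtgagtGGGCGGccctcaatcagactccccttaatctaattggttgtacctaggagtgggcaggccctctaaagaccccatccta
Acadvl: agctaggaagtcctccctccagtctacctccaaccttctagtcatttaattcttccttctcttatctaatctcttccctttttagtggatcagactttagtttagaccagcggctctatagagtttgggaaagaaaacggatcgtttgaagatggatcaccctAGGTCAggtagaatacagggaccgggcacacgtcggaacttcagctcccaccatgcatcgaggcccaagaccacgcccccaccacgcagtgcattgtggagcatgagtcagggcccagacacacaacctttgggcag

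Hadha and Hadhb are transcribed away from each other from start sites 273 bases apart, at 30154980 and 30155253 of chromosome 5, and the Hadha start lies just outside the Hadhb window. The windows of both genes share 228 of 300 bases. The letters GGGCGG, the GC box that Sp1-type factors bind, were found on either strand in 35.7% of all 32851 promoter windows and in 77.1% of the 35 windows of members. Among the members with a window, 11 of the 12 that were called higher held it, and so did 1 of the 2 called lower and 11 of the 14 that did not pass. The Acadvl window held no GC box. The 32851 windows were not limited to the genes tested, so the shares of 35.7% and 77.1% come from unlike sets of genes. The core site AGGTCA was in 17.1% of member windows and 16.3% of all windows, and the genes that held it were Acadm, Acadvl, Cpt1a, Cpt1c, Echs1 and Scp2. Only Scp2 of these rose.

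AGGTCA repeated in the same direction after 1 base of any kind, the form that receptors of the PPAR family bind, was in 0.0396% of all windows and in none of the member windows. The estrogen-related receptor form TCAAGGTCA, which overlaps with the core site, was in 0.423% of all windows and in none of those of members. CACGTG, an E-box, was in 7.15% of all windows and again in none of those of members. CCAAT was in 40% of member windows and 37.4% of all windows. Both strands were searched for every motif, and a match or its absence describes these letters in these windows only.

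The 2 tested members of the carnitine shuttle did not pass the test. Slc25a20, the acylcarnitine carrier of the inner membrane, was listed outside the members and was called higher by 0.47, as given below. Cpt1a, which couples long acyl chains to carnitine at the outer mitochondrial membrane, changed by 0.12 (SE 0.08, limma adjusted p = 0.2505). Another probe set of Cpt1a, in a fit over all 22518 probe sets above the filter, was higher by 0.52 (SE 0.14, adjusted p = 0.008381 in limma). Cpt1c, the form of neurons with little transferase activity, had signals of 1588, 1501, 1419, 1468 and 1251 in the 5-month mice and 1593, 1559, 1515, 1449 and 1601 in the 30-month mice. These ranges overlapped between 1449 and 1588, and the change was 0.10 (SE 0.06, limma adjusted p = 0.2132, 95% confidence interval -0.04 to 0.23). Cpt2, which releases the acyl chain inside the mitochondrion, was too dim to be tested. Its signals were 99.95, 90.46, 83.67, 99.03 and 99.56 at 5 months and 118, 141, 107, 132 and 125 at 30 months, so that every old mouse lay above every young one. The difference of means was 0.40 on the log2 scale.

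Among the acyl-CoA dehydrogenases, which take the first electrons from acyl chains of a given length, Acadvl fell. Its signals were 985, 976, 932, 1004 and 842 in young mice and 804, 879, 865, 796 and 815 in old mice. The ranges overlapped through 1 young mouse, and the change was -0.19 (SE 0.06, limma adjusted p = 0.02119). The call did not hold on omission of either of 2 mice: the limma adjusted p was 0.05491 without 5-month mouse 4 and 0.05557 without 30-month mouse 5, where the change was -0.17 and -0.17. Acadl, Acadm and Acads, for long, medium and short chains, changed by -0.09, 0.03 and -0.18 (SE 0.06, 0.05 and 0.10) and did not pass. Of these 4 genes none was called higher.

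The later steps rose in 4 of 5 genes. Hadha carries the hydratase and dehydrogenase of the mitochondrial trifunctional protein, which handles long chains at the inner membrane. Its signals were 603, 520.2, 591, 583 and 511 at 5 months and 696, 726, 753, 702 and 682 at 30 months. All old mice lay above all young mice, and the level was 1.27 times as high (log2 change 0.34, SE 0.06, limma adjusted p = 0.0006826). Hadhb, its thiolase subunit, had signals of 1717, 1815, 1613, 1703 and 2028 in young and 2146, 2202, 2076, 2189 and 2058 in old mice. The groups again did not overlap, although 1 young mouse came close to the lowest old one, and the change was 0.27 (SE 0.06, limma adjusted p = 0.002325).

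Hadh, the dehydrogenase for medium and short chains, rose most in the spiral. It gave signals of 931, 929, 895, 955 and 900.4 at 5 months and 1369, 1532, 1361, 1592 and 1392 at 30 months. The gap between the groups was far wider than the spread inside either, and the level was 1.57 times as high (log2 change 0.65, SE 0.06, limma adjusted p = 6.914e-06). A second probe set of Hadh rose as well, by 0.33 (SE 0.09, adjusted p = 0.008818 over all probe sets in limma), with overlapping groups. Acaa2, the thiolase for medium chains, had signals of 508, 384, 391, 458 and 313 in young mice against 569, 555, 579, 628 and 499.7 in old mice. Here the highest young mouse exceeded the lowest old one, and the change was 0.48 (SE 0.11, limma adjusted p = 0.003387). Echs1, the hydratase for short chains, changed by 0.11 (SE 0.08, limma adjusted p = 0.2549) and did not pass.

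The auxiliary enzymes, which prepare the double bonds of unsaturated acids for the spiral, did not move together. Eci1, an enoyl-CoA isomerase, had signals of 413, 472, 394, 428 and 398 at 5 months and 536, 571, 577, 584 and 549 at 30 months. Every old mouse lay above every young mouse, with a change of 0.42 (SE 0.06, 1.34-fold, limma adjusted p = 0.0001457). Eci2, a second isomerase that is also found in peroxisomes, had signals of 879, 874, 749, 831 and 772 in young and 1019, 993, 1084, 1052 and 967 in old mice. It separated the ages in the same way, with a change of 0.32 (SE 0.06, limma adjusted p = 0.0009682).

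Decr1, the dienoyl-CoA reductase, cannot be given a direction. On its brighter probe set the signals were 336, 373, 421, 409.7 and 364 at 5 months and 328, 275, 251, 266 and 179 at 30 months. The old mice lay below all young mice, with a change of -0.57 (SE 0.13, limma adjusted p = 0.002918). On its other probe set they were 250.5, 194, 218, 216 and 174 at 5 months and 279, 315, 313, 313 and 295 at 30 months. There the old mice lay above all young mice, with a change of 0.53 (SE 0.09, adjusted p = 0.0007209 over all probe sets in limma). The mean of both probe sets changed by -0.02 (adjusted p = 0.8767 in limma), in a fit of such means that called 25.7% of genes higher and 9.54% lower. The authors' deposited table listed the first at a fold of -1.45 and the second at 1.44.

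The electron transfer genes did not pass the test. Etfa and Etfb, the subunits of the electron transfer flavoprotein, changed by 0.07 and -0.16 (SE 0.07 and 0.07), and Etfdh, the oxidoreductase that hands the electrons to ubiquinone, by -0.05 (SE 0.05). The adjusted p of Etfb in limma was 0.05848, and it was called lower with a change of -0.21 without 30-month mouse 3. These member dehydrogenases and their electron acceptors held 7 tested genes, of which 1 was called lower and none higher. Of the acyl-CoA dehydrogenases listed outside the members, Acad8, Acad9 and Ivd were called higher, by 0.22, 0.24 and 0.28, and Acadsb lower, at -0.35. Acad8 lies outside the naming rule and was named after its values were seen. Acad9 and Ivd were not called under quantile normalization (limma adjusted p = 0.0617 and 0.0812) or with an equal median over the genes tested.

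**Figure D1:**
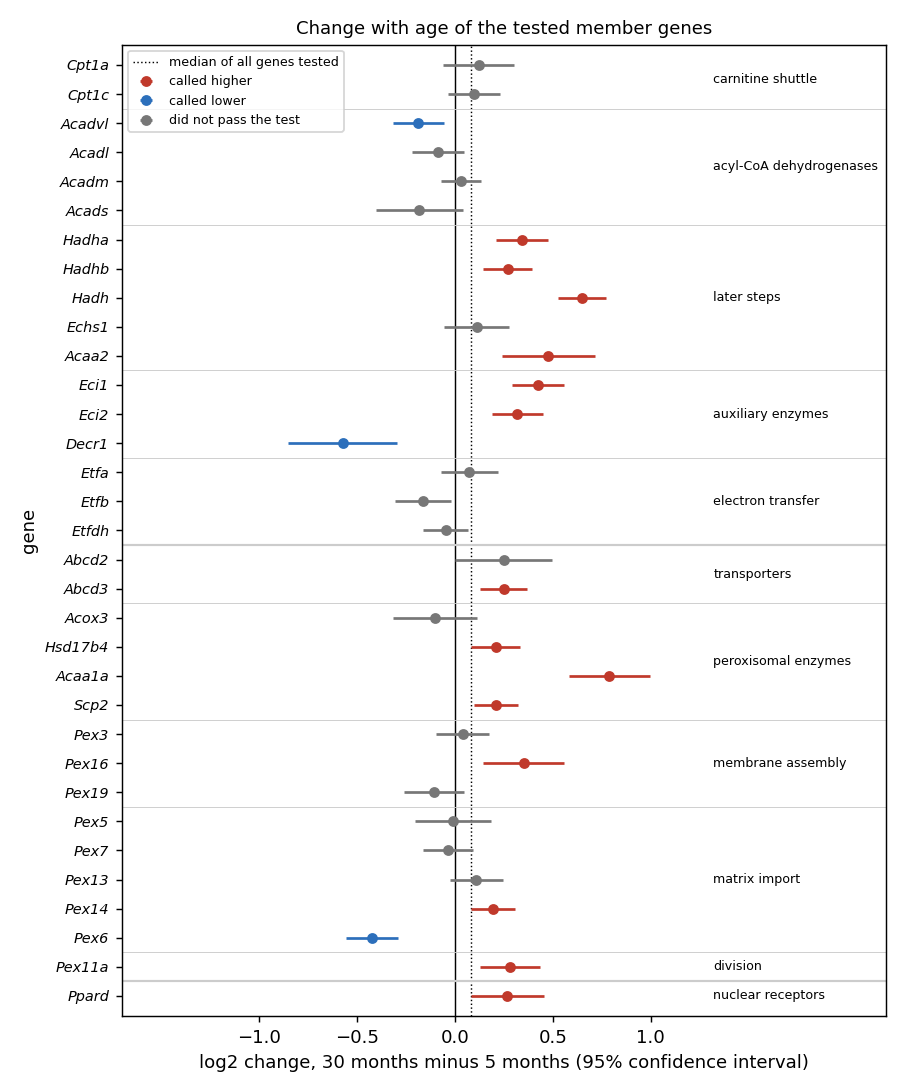
The log2 change from 5 to 30 months is plotted for each of the 33 tested members, grouped by step, as points with 95% confidence intervals; red marks genes called higher, blue genes called lower and grey those that did not pass. The dotted line is the median of all genes tested, 0.08. Most genes of the later mitochondrial steps lie to its right, and the acyl-CoA dehydrogenases lie to its left.

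The division between steps could be seen in single mice. Set against the 5-month mean of each gene, the median of the 5 later-step genes lay between 0.28 and 0.43 on the log2 scale in the 30-month mice. The median of the 4 acyl-CoA dehydrogenases lay between -0.14 and -0.03 in the same mice, and that of the 3 electron transfer genes between -0.08 and 0.02. The median of all genes tested lay between 0.06 and 0.10. The order of these medians, with the later steps above all genes and the dehydrogenases below, was the same in all 5 old mice. Since the steps were compared with the values known, this is a description and carries no test.

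**Figure D2:**
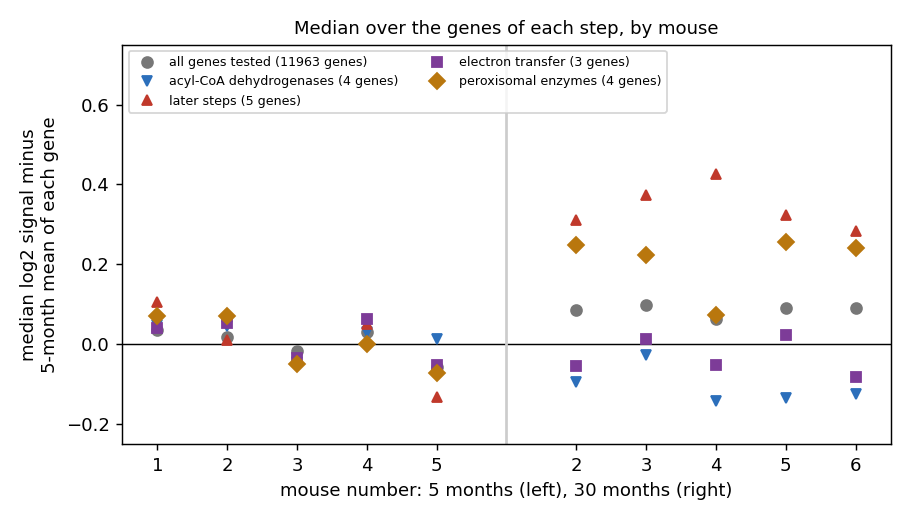
For each mouse (x axis, 5-month mice left and 30-month mice right) the median over the genes of a step is plotted as log2 signal minus the 5-month mean of each gene. In every 30-month mouse the later steps (red, 0.28 to 0.43) lie above the median of all genes (grey, 0.06 to 0.10) and the acyl-CoA dehydrogenases (blue, -0.14 to -0.03) lie below it.

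The scaling of the arrays moved the steps together. An equal median shifts all genes of an array alike, so it cannot change the order of the steps within an array. Quantile normalization moved the median of all genes from 0.08 to 0.0047, and setting the arrays to an equal median over the genes tested, a scaling added after the data were seen, moved it by -0.10 to -0.02. Under these scalings 22.9% and 21.2% of all genes were higher and 20.4% and 23.9% were lower. The median change of the later steps was then 0.23 and 0.24, that of the dehydrogenases -0.21 and -0.23, and that of electron transfer -0.17 and -0.15. Hadha, Hadhb, Hadh, Acaa2, Eci1 and Eci2 were called higher under each of the 4 scalings tried, which 20% of all genes tested were. Acadl, Etfb and Etfdh were called lower under both of these scalings, with quantile changes of -0.20, -0.29 and -0.17 (limma adjusted p = 0.0147, 0.004062 and 0.0126), and Acads under the second only. With equal medians over all probe sets, where 35.5% of all genes were higher and 10.7% lower, Acadvl had an adjusted p of 0.05071 in limma and no dehydrogenase was called.

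**Figure D3:**
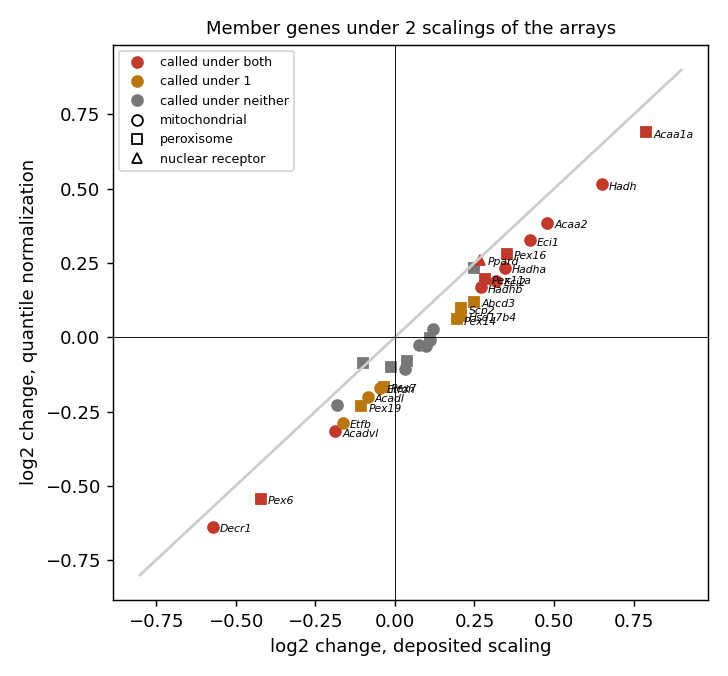
The log2 change of each tested member under quantile normalization (y axis) is plotted against that under the deposited scaling (x axis); the diagonal marks equal values. Nearly all points lie under the diagonal; Hadh, Acaa2, Eci1 and Acaa1a stay high under both and Decr1 and Pex6 low under both, while Abcd3, Scp2, Hsd17b4 and Pex14 are called under the deposited scaling only.

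In the peroxisome, 7 of 15 tested members were higher, 1 was lower and 7 did not pass, beside 6, 2 and 9 of 17 in mitochondrial oxidation. The median change was 0.19 for the peroxisome members, 0.10 for the mitochondrial members and 0.08 for all genes tested. The difference between the 2 groups was not tested. Under quantile normalization 3 peroxisome members were higher and 3 lower with a median of 0.06, against 6 higher, 5 lower and a median of -0.03 in mitochondrial oxidation.

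Abcd3, a transporter of the peroxisomal membrane that brings in branched and dicarboxylic acyl chains, had signals of 1289, 1202, 1190.1, 1329 and 1124 at 5 months and 1514, 1455, 1463, 1482 and 1368 at 30 months. No old mouse fell into the young range, and the change was 0.25 (SE 0.06, limma adjusted p = 0.00267), or 0.12 with an adjusted p of 0.06731 under quantile normalization. Abcd2, a transporter of very long chains, changed by 0.25 with a larger error (SE 0.11, limma adjusted p = 0.08971) and did not pass, and it did pass without 30-month mouse 4, at 0.32. Another probe set of Abcd2 was higher by 0.34 (SE 0.09, adjusted p = 0.01122 over all probe sets in limma).

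The peroxisomal enzymes were led by Acaa1a, the thiolase of straight chains. Its signals were 478, 390.0, 393, 437 and 318 at 5 months and 649, 719, 751, 635 and 705 at 30 months. The groups were widely apart, with a level 1.73 times as high (log2 change 0.79, SE 0.10, limma adjusted p = 4.287e-05). This was the largest change of all 33 members. Its other probe set rose by 0.63 (SE 0.08), from signals of 371 to 470.0 up to 619 to 718, again without overlap. Both are of the x_at kind, which can bind similar transcripts, and mouse has a near-identical gene, Acaa1b, so the share of each copy is uncertain.

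Hsd17b4, the multifunctional enzyme of branched chains and bile acid precursors, had signals of 1025, 1046, 899.9, 954 and 979 in young and 1190.1, 1128, 1037, 1155 and 1154 in old mice. The ranges met at 1 mouse of each age, and the change was 0.21 (SE 0.06, limma adjusted p = 0.009844). This too was an x_at probe set, and the other probe set of Hsd17b4 changed by 0.06 (SE 0.07, adjusted p = 0.5556 in limma). Scp2, which encodes a peroxisomal thiolase and a lipid carrier, had signals of 1783, 1747, 1605, 1667 and 1653 at 5 months and 1965, 1998, 1766, 2046 and 2001 at 30 months. Old mouse 4 lay inside the young range and the others above it, with a change of 0.21 (SE 0.05, limma adjusted p = 0.005157). A second probe set of Scp2 changed by 0.19 (SE 0.07, adjusted p = 0.05336 in limma), and another, dimmer one fell by 0.44 (SE 0.12, adjusted p = 0.009672 in limma). Under quantile normalization Hsd17b4 and Scp2 changed by 0.07 and 0.10 (limma adjusted p = 0.2732 and 0.09301), and with an equal median over the genes tested by 0.11 and 0.11 (limma adjusted p = 0.1168 and 0.07527), so that neither was called. Acox3, an oxidase of branched chains, changed by -0.10 (SE 0.10) and did not pass, and Ehhadh, the bifunctional enzyme of straight chains, lay below the filter.

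The peroxins of membrane assembly are Pex3, Pex16 and Pex19, which bring membrane proteins into the organelle. Pex16 had signals of 357, 295, 301, 303 and 229 at 5 months and 355, 359, 396, 388 and 379 at 30 months. The highest young mouse was level with the lowest old one, and the change was 0.35 (SE 0.10, limma adjusted p = 0.009061). A second probe set of Pex16 changed by 0.04 (SE 0.08, adjusted p = 0.6961 in limma). Pex3 and Pex19 changed by 0.04 and -0.11 (SE 0.06 and 0.07) and did not pass, and Pex19 was called lower under quantile normalization at -0.23.

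Matrix import depends on the receptors Pex5 and Pex7, which carry enzymes from the cytosol, and on the docking proteins Pex13 and Pex14. Pex5 had signals of 514, 456, 479.8, 438 and 357 in young and 429, 497, 426, 414 and 453 in old mice. The old range lay inside the young one, and the change was -0.01 (SE 0.09, limma adjusted p = 0.9333, 95% confidence interval -0.20 to 0.18). Pex7, which imports the ether lipid enzyme Agps, the thiolase and Phyh, had signals of 1025, 1088, 938, 963 and 1033 at 5 months and 957, 1071, 916, 997 and 986 at 30 months. These ranges overlapped almost fully, and the change was -0.03 (SE 0.06, limma adjusted p = 0.6585, 95% confidence interval -0.16 to 0.09).

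Pex14 rose by a small amount that separated the ages. The young mice had signals of 883, 858, 870.3, 897 and 781 and the old mice 975, 979.6, 964, 1009 and 974. Every old mouse lay above every young one, with a change of 0.19 (SE 0.05, limma adjusted p = 0.007668), but it was 0.06 with an adjusted p of 0.2883 under quantile normalization. Pex13 changed by 0.11 (SE 0.06, limma adjusted p = 0.169) and was called higher at 0.16 without 30-month mouse 2. Pex11a, which acts in peroxisome elongation and division, had signals of 359, 352, 307, 355 and 373 at 5 months and 417, 431, 451, 451 and 374 at 30 months. The lowest old mouse was just above the highest young one, and the change was 0.28 (SE 0.07, limma adjusted p = 0.005792). It was 0.18 with an adjusted p of 0.05325 in limma when arrays were set to an equal median over the genes tested, and a second probe set of Pex11a changed by 0.17 (adjusted p = 0.1129 in limma).

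Pex6, an ATPase that recycles the import receptor, gave opposite results on its 5 probe sets. The brightest had signals of 841, 955, 876, 956 and 828 at 5 months and 717, 664, 676, 614 and 653 at 30 months. All old mice lay below all young mice, with a change of -0.42 (SE 0.06, limma adjusted p = 0.000166). An x_at probe set had 451, 409.9, 388, 459 and 424 against 758, 776, 803, 742 and 761, where all old mice lay above and the change was 0.85 (SE 0.06, adjusted p = 2.943e-06 over all probe sets in limma). The remaining 3 changed by -0.27 (SE 0.06, called lower), 0.0019 (SE 0.06, not passed) and 0.22 (SE 0.07, called higher). The mean over all 5 changed by 0.08, so no direction can be given for the gene.

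**Figure D4:**
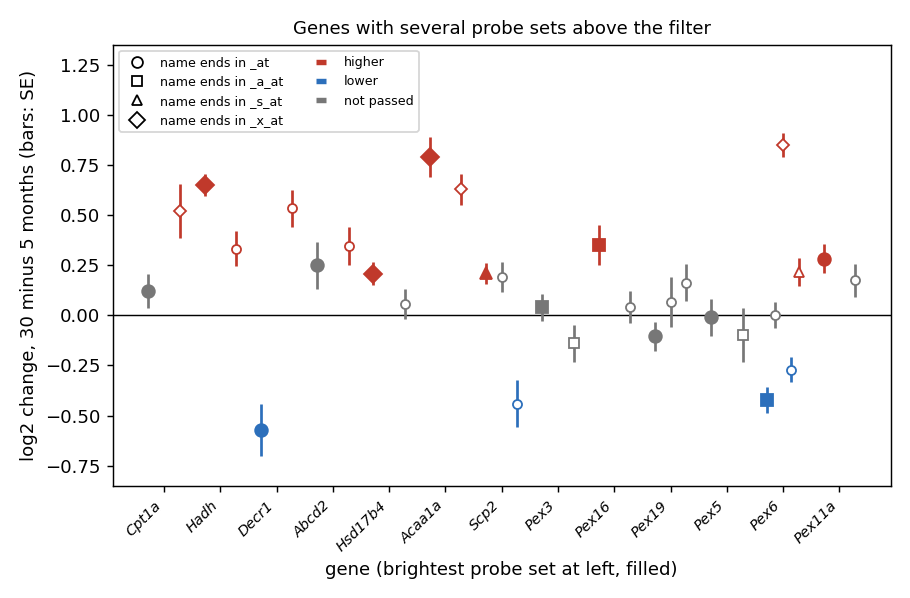
Each point is a probe set of the 13 members that had several above the filter, with its log2 change from 5 to 30 months and SE as a bar; the brightest is filled and at the left, the shape gives the kind of probe set and the colour the call. Decr1, Scp2 and Pex6 have probe sets called in both directions, and all diamonds (x_at) lie above 0.

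The kind of probe set moved with the direction. The 36 members had 72 probe sets, of which 51 lay above the filter, and 13 members had several. Probe sets of the x_at kind, whose probes can match other transcripts, were higher in 7 of 7 cases among the members and in 46.53% of 1483 cases over the array, where 29.1% of all probe sets above the filter were higher and 11.8% lower. Ordinary probe sets ending in _at were higher in 9 of 35 cases among the members, beside 27.39% of 16429 over the array. Opposite calls were found in 3 of the 13 members with several probe sets, Decr1, Scp2 and Pex6, and in 9.449% of 4953 genes with several. Hadh, Hadhb, Acaa1a and Hsd17b4 were represented by x_at probe sets. Acaa2 and Scp2 were on s_at probe sets, a kind that was higher in 35.36% of 1465 cases over the array. Hadha, Echs1 and all member acyl-CoA dehydrogenases and electron transfer genes were on ordinary _at probe sets, so step and kind partly coincided. Without x_at probe sets, 33% of all genes were higher and 12% lower. Then 5 mitochondrial members were called higher in place of 6, since Hadhb has no other probe set, and 5 peroxisome members in place of 7. Acaa1a, the largest change, has no other kind of probe set and dropped out, Hadh changed by 0.33 in place of 0.65, and Hsd17b4 changed by 0.06 (adjusted p = 0.5337 in limma). Without s_at probe sets as well, 4 mitochondrial and 5 peroxisome members were called higher. The part of cross-binding in these values was not tested.

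**Figure D5:**
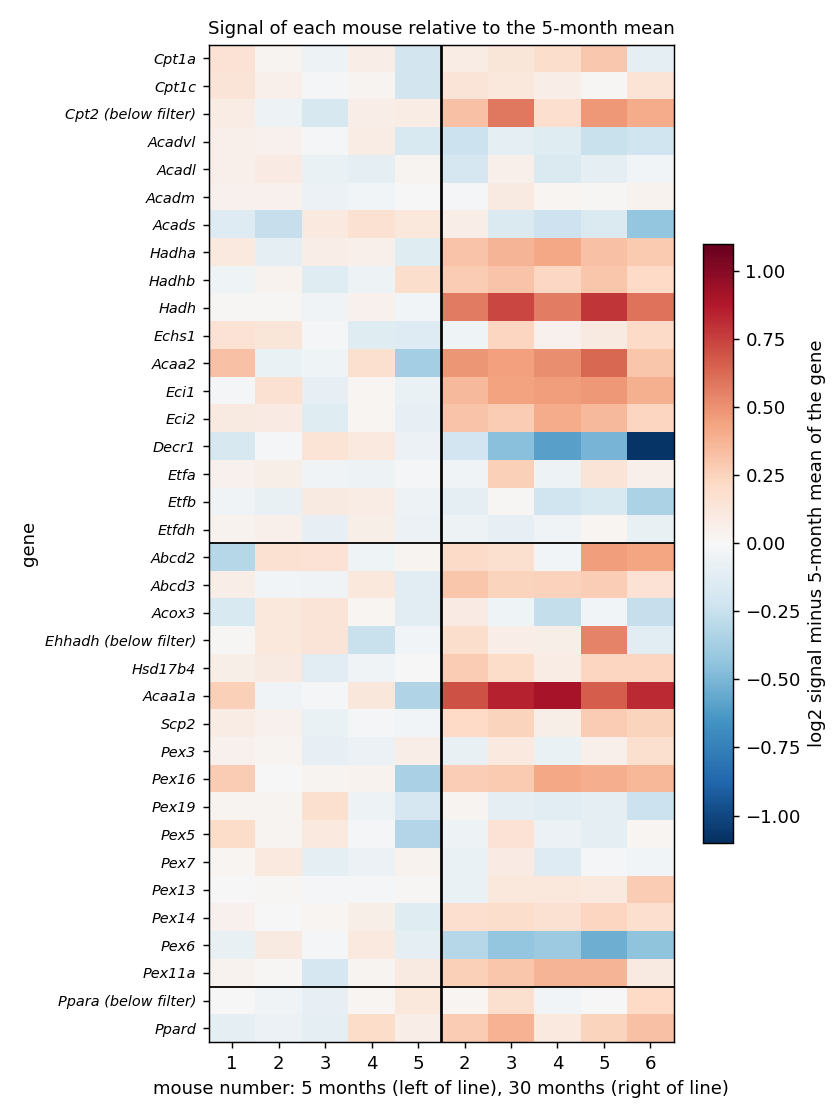
Colour gives the log2 signal of each of the 36 members (y axis) in each mouse (x axis, 5-month mice left of the line and 30-month mice right) minus the 5-month mean of that gene. Hadh and Acaa1a are red in all 5 old mice, Decr1 and Pex6 are blue in all of them, and Pex5, Pex7 and Acadm are pale at both ages.

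The receptors that induce these genes were dim. Ppara, which drives fatty acid oxidation in liver, had signals of 93.45, 90.96, 87.81, 94.98 and 102 at 5 months and 95.09, 106, 92, 93.48 and 109 at 30 months. The ages overlapped and the gene lay below the filter, so it was not tested. Ppard, its more widespread relative, had 141, 146, 141, 175 and 160.0 in young mice and 185, 198, 164, 180.1 and 190.2 in old mice. The ranges overlapped through 1 old mouse, and the change was 0.27 (SE 0.09, limma adjusted p = 0.02143). Its adjusted p rose to between 0.05019 and 0.05361 when 5-month mouse 1, 5-month mouse 3 or 30-month mouse 3 was left out, with changes of 0.24 in each case. With arrays set to an equal median over the genes tested it was 0.17 with an adjusted p of 0.1272 in limma. Of 7 tested genes known to be induced through these receptors, 3 rose and 2 fell: Pdk4, a brake on pyruvate use, by 0.64 (SE 0.08), Acot1, a cytosolic acyl-CoA thioesterase, by 0.60 (SE 0.10) and Plin2, a lipid droplet coat protein, by 0.21 (SE 0.07) were higher. Angptl4, a secreted inhibitor of lipoprotein lipase, had a change of -1.05 (SE 0.14) and Ucp3, a mitochondrial carrier, of -0.32 (SE 0.11).

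Among their partners and coactivators 4 of 8 tested genes rose and 2 fell. Ppargc1a, a coactivator of mitochondrial genes, was higher by 0.67 (SE 0.06) on an x_at probe set. That was the brightest of its 5 probe sets above the filter, and the others are not given here. Ncoa1, another coactivator, was higher by 0.50 (SE 0.06), Nrip1, a corepressor, by 0.39 (SE 0.08), and Rxrb, which pairs with these receptors, by 0.35 (SE 0.06). Rxra, another partner, was lower, with a change of -0.23 (SE 0.06), and Rxrg, also a partner, did not pass. The groups of mice did not overlap in any of the 5 called genes named here.

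The pathway around the members was listed in 8 groups with 84 entries, the receptor groups included. The counts of every group stand beside 34% of all genes tested called higher and 12.3% called lower. Fatty acid activation had 4 of 9 tested genes higher and 1 lower. Acsbg1, an acyl-CoA synthetase of astrocytes and neurons, rose by 0.47 (SE 0.07) and was non-overlapping, and Acsl1, Acsl4 and Acsl5, synthetases for long chains, were higher by 0.23, 0.21 and 0.16 (SE 0.08, 0.08 and 0.06). Fabp7, a fatty acid binding protein of radial glia and astrocytes, had a change of -0.35 (SE 0.09). Of 8 tested genes of carnitine, malonyl-CoA and fuel control, 3 were higher and 1 lower. Slc25a20, which carries acylcarnitine across the inner membrane between the steps of Cpt1a and Cpt2, rose by 0.47 (SE 0.07), and Crat, carnitine acetyltransferase, by 0.24 (SE 0.08). Mlycd, which removes the Cpt1 inhibitor malonyl-CoA, had a change of -0.69 (SE 0.24).

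Some of these calls did not hold when 1 array was left out. The calls of Acsl4, Acsl5, Ucp3, Mlycd, Acsl1, Plin2 and Crat were lost on omission of any of 8, 7, 6, 5, 3, 3 and 1 of the 10 arrays, in that order. In the fits that lost the call, the change lay between 0.17 and 0.21 for Acsl4 and between 0.12 and 0.16 for Acsl5. In those fits it lay between -0.33 and -0.24 for Ucp3 and between -0.68 and -0.52 for Mlycd. It lay between 0.20 and 0.21 for Acsl1 and between 0.16 and 0.21 for Plin2, and was 0.20 for Crat. For Crat the array was 5-month mouse 2, for Acsl1 5-month mouse 5 and 30-month mice 2 and 3, and for Plin2 5-month mice 3 and 5 and 30-month mouse 4. For Mlycd they were 5-month mice 3, 4 and 5 and 30-month mice 4 and 6, and for Ucp3 5-month mice 2, 3, 4 and 5 and 30-month mice 3 and 5. Acsl4 kept its call only without 5-month mouse 1 or 30-month mouse 4, and Acsl5 only without 5-month mice 1 or 5 or 30-month mouse 3.

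Other mitochondrial acyl-CoA enzymes were higher in 6 of 11 and lower in 1. Acot7, a mainly cytosolic thioesterase, and Acot13, a mitochondrial one, rose by 0.49 and 0.25 (SE 0.09 and 0.06), Ivd, the dehydrogenase of leucine breakdown, by 0.28 (SE 0.07), and Acad9, needed for complex I assembly, by 0.24 (SE 0.06). Acadsb, the dehydrogenase of short branched chains, had a change of -0.35 (SE 0.09) on an x_at probe set. In ketone body metabolism 1 of 5 was higher and 2 lower. Bdh1, which interconverts the ketone bodies, was higher by 0.25 (SE 0.06), whereas Oxct1, the enzyme of ketone use, changed by -0.18 (SE 0.05).

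Other peroxisomal enzymes and transporters were higher in 7 of 21 and lower in 2, close to the shares of 34% and 12.3% over all genes tested. Ech1, a dienoyl-CoA isomerase, rose by 0.59 (SE 0.12), Cat, which removes the hydrogen peroxide that oxidases make, by 0.38 (SE 0.07), Agps, of ether lipid synthesis, by 0.36 (SE 0.06), and Amacr, a racemase for branched chains, by 0.34 (SE 0.07). Of 7 other peroxins tested, 3 rose and none fell. Among them were Pex2, of the ring complex that marks the import receptor for recycling, with 0.47 (SE 0.08), and Pex11g, of division, with 0.36 (SE 0.07).

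By the authors' criteria, a lower bound of the fold above 1.2 and a p-value of at most 0.1, 9.74% of genes tested were higher and 2.42% lower. On their brightest probe set 3 members were marked upwards, Hadh at a fold of 1.57, Eci1 at 1.34 and Acaa1a at 1.7. Downwards 2 were marked, Decr1 at -1.45 and Pex6 at -1.34. Most changes of the members were smaller than these. Of the 14 members called higher, the changes lay between 0.19 for Pex14 and 0.79 for Acaa1a on the log2 scale. The median SE over all genes tested was 0.07, and the number of mice limits what could be called.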

How the data were processed

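Each of 10 arrays held 1 mouse, 5 aged 5 months and 5 aged 30 months, grouped by the labels. The authors deposited probe set intensities, not log values, of 45037 probe sets, and beside them a comparison of the ages as signed ratio or fold, bounds and p-values, per the file headers. GCOS is named per the submitters' processing notes, and the background correction, probe summary and scaling were not stated. In such values a scaling step can shift all genes together, so other scalings were tried. Fold changes and bounds, treated as score values, and p-values in the authors' deposited table were used for description only.

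Probe sets were named through the array annotation and a RefSeq gene table of GRCm38.p6: 36299 of 45037 had 1 gene, and 1261 with several and 7477 with none were left out of gene counts. Signals under 1 (55 values) were set to 1 and log2 was taken. Of each gene the probe set with the highest mean over all arrays was kept, and it was tested if this mean exceeded the median of all probe sets, 6.89. limma 3.58.1 (R 4.3.3) with a variance trend compared the ages over 11963 genes, two-sided, with Benjamini-Hochberg adjusted p-values. Without adjustment 6431 genes had a p under 0.05. The code was tested on simulated data.

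The members and the gene lists were chosen with earlier results of these data known, and no list was tested. All called members have their arrays printed, as have members whose ages did not overlap and Ppara, Ppard, Cpt1c, Pex5 and Pex7. Of each other group up to 5 called genes with the smallest adjusted p were named, and up to 3 markers. Single values of 3 genes that this rule names are not reported here. Mouse numbers were shared by 4 pairs across ages, and the correlations of their deviations were -0.33, -0.04, 0.08 and 0.11, so the numbers do not pair the mice. Nothing was left out as an outlier: arrays correlated with their own age at 0.966 to 0.978, and array medians lay between 114.5 and 122.61. The number of arrays limits the precision. The fit over single probe sets, the promoter search, the scaling over tested genes and the omission of x_at probe sets were chosen after seeing the data.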

Additional observations from a re-analysis of the deposited data

Results flagged for a closer look

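In the screen of all members for a mouse far from the others of its age, 72 groups of 5 mice were examined and 1 stood out. The Scp2 signal of 30-month mouse 4 was 1765.89, while the other 4 old mice lay between 1965.13 and 2045.7. The gap was 0.727 of the range of the old mice, above the limit of 0.71 for 5 values, which chance passes in about 1 of 20 groups. The peroxisome median of the same mouse, which includes Scp2, was also the lowest among the old mice. It was 0.06 relative to the 5-month means, and the others lay between 0.17 and 0.24. This mouse was lowest as well in the median of all genes tested, at 0.06 beside 0.09 to 0.10 in the other old mice. In that of the mitochondrial members it had 0.05 beside 0.06 to 0.13.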

How the results depend on the processing

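Counts of members called higher in mitochondrial oxidation stayed at 6 under every scaling. Under quantile normalization, 5 mitochondrial members were lower with a median of -0.026, and 3 peroxisome members were higher and 3 lower with a median of 0.061. With arrays set to an equal median over the genes tested, a setting chosen after seeing the data, 6 mitochondrial members were lower with a median of -0.0033, and 3 peroxisome members were higher and 2 lower with a median of 0.092. With an equal median over all probe sets, 1 mitochondrial member was lower. The mean of all probe sets of a gene gave 3350 called genes, 1 mitochondrial member lower, and 3 peroxisome members higher and 0 lower with a median of 0.041. Without x_at and s_at probe sets, or without x_at alone, the peroxisome median was 0.084. With a fold of at least 1.2 added, 3727 of the 11963 genes tested were called, counting both directions. Then 1 mitochondrial member was lower and 3 peroxisome members were higher. By the authors' mark 1454 genes were called, with 2 mitochondrial members higher and 1 lower and 1 peroxisome member higher. The mouse number as a replicate block over the 8 arrays of mice 2 to 5 gave 1 mitochondrial member lower, a peroxisome median of 0.12 and 4474 genes called over all genes tested, beside 1, 0.12 and 4978 without the block in the same arrays, and Acadvl and Ppard were not called in either.

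With each mouse left out in turn, 4823 to 5573 genes were called, 6 mitochondrial and 7 to 8 peroxisome members were higher, and 1 to 3 and 1 were lower. Mitochondrial members called lower were 1 without 5-month mouse 4 or 30-month mouse 5. The medians were 0.07 to 0.13 and 0.16 to 0.20. Changes that turned sign were those of genes that did not pass, with the exceptions of Scp2 and Pex6. Under quantile normalization they were Cpt1c at -0.029, Acadm at -0.11, Echs1 at -0.0084, Etfa at -0.026, Pex3 at -0.078 and Pex13 at -0.0020. Under the median over tested genes they were Cpt1c at -0.0033, Acadm at -0.070, Etfa at -0.027 and Pex3 at -0.062. With the mean of probe sets they were Scp2 at -0.013, Pex3 at -0.050, Pex19 at 0.041, Pex13 at -0.064 and Pex6 at 0.076. Pex5 was at 0.0096 with an equal median over all probe sets, at 0.032 with and without the replicate block, and between -0.091 and 0.041 with single mice left out. The cause of these shifts was not tested. Signal near background limits Cpt2, Ehhadh and Ppara, which were not tested.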
